A study of Mus musculus with 8 samples.

Results

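Splenic T cells of wild-type (WT) mice were compared before and after activation of the T cell receptor (TCR). All cells of the 4 WT samples were used, 6407 of the 12846 T cells of the series, and the unique molecular identifiers (UMIs, one for each captured mRNA molecule) of each sample were summed per gene. The unstimulated samples held 1395 and 1508 cells, and the samples stimulated for 48 hours with 5 μg/mL soluble anti-CD3 and 2.5 μg/mL soluble anti-CD28 held 1703 and 1801. The mice were on the C57BL/6 background and, by the study's methods, 8 to 12 weeks old. T cells were enriched by magnetic separation and freed of dead cells, and both CD4+ and CD8+ T cells are in every sample. The other 4 samples came from SDHA-KO mice (Sdha fl/fl with CD4-Cre, which removes the gene from T cells in the thymus), were unstimulated or stimulated in the same way, and served here to estimate the spread between replicates and for 1 comparison. The sample records do not say whether the 2 samples of a group came from different mice, so p-values measure the spread between these samples, which may be technical. They also leave unclear whether unstimulated T cells were kept in culture for the same 48 hours, and time in culture and stimulation cannot be told apart.

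A naive T cell is small and quiescent, and circulates between blood and lymphoid organs under the control of transcription factors such as KLF2, TCF7, and FOXO1. Ligation of the TCR together with the costimulatory receptor CD28 switches on calcium, MAP kinase, and NF-κB signaling and the kinase mTOR. The cell then grows, turns to glycolysis and biosynthesis, secretes cytokines, enters the cell cycle, and acquires effector functions such as the granzymes of cytotoxic T cells.

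The samples differed in depth with stimulation. Unstimulated cells had a median of 7572 and 8085.5 UMIs and 2097 and 2184 detected genes, and stimulated cells 13809 and 13745 UMIs and 3908 and 3885 genes. Sample totals were 10947009 and 12677193 UMIs before stimulation and 46201110 and 51398728 after it. Stimulated cells fell into groups of unequal depth. Cells with less than 10% of their UMIs on mitochondrially encoded genes made up all unstimulated cells but 31.8% and 35.5% of stimulated cells (541 and 640 cells). These 541 and 640 cells had a median of 61452 and 61306 UMIs and held 68.2% and 72% of the UMIs of their samples. The remaining 1162 and 1161 stimulated cells had 11076 and 10856 UMIs. A sum over all stimulated cells therefore weighs the deep cells most, and the comparisons below were repeated in the cells under 10%. The samples shared at most 1 cell barcode with each other.

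**Figure D1:**
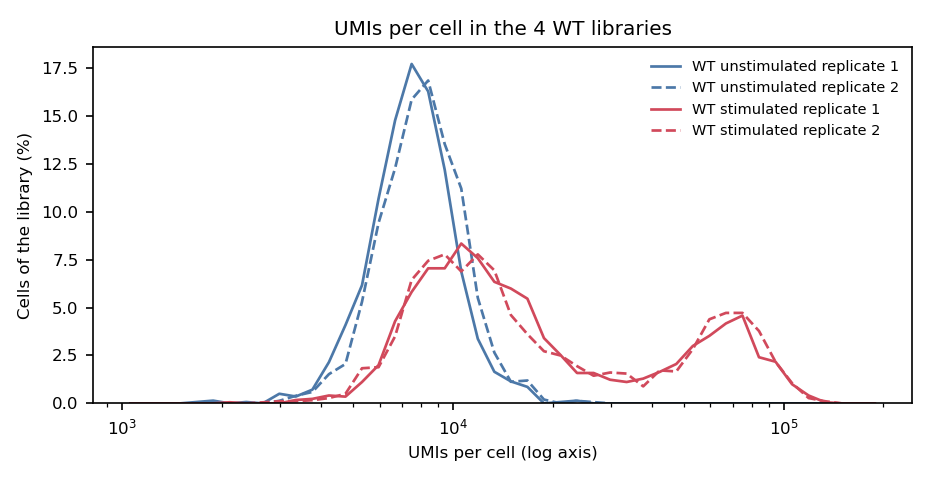
UMIs per cell (log axis) against the percentage of cells of each WT sample. The unstimulated samples form a single peak around medians of 7572 and 8085.5 UMIs, whereas the stimulated samples form a peak of shallow cells (medians of 11076 and 10856 in cells with at least 10% mitochondrial UMIs) and a peak of deep cells (medians of 61452 and 61306 in cells under 10%).

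Levels are given as CPM, the UMI count of a gene brought to the same total in every sample, after scaling by trimmed mean of M values (TMM), a factor that centers the bulk of the genes between samples. Because these libraries count the 3′ ends of transcripts, a CPM does not grow with transcript length. CPM measures the part of the mRNA that a gene holds, not the number of molecules per cell, which is given as UMIs per cell for some genes and lists. UMIs per cell are averages over all cells of a sample, in which the deep cells weigh most. A gene is said to have risen or fallen where edgeR's quasi-likelihood test gave an adjusted p (Benjamini-Hochberg, over all genes tested) under 0.05. Changes are log2 fold changes of CPM ± SE over 2 against 2 samples.

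The identity of the cells was checked first. The CD3 chain gene Cd3e was detected in 94.9% and 96.4% of unstimulated cells and in 85.8% and 87% of stimulated cells. Pax5, a defining factor of B cells, was at 0 UMIs in all 4 samples, as were the myeloid genes Adgre1, S100a8, and S100a9 and the NK cell gene Ncr1. Other markers were detected. The B cell genes Ighm and Cd79b had 1624 and 2013 and 89 and 114 UMIs before stimulation. After it they had 3389 and 1604 and 257 and 290, in samples with larger totals. In CPM before TMM scaling Ighm went from 148 and 159 to 73.4 and 31.2, and Cd79b from 8.13 and 8.99 to 5.56 and 5.64. The myeloid gene Fcer1g had 20 and 34 before and 28 and 27 after, and the NK cell gene Klre1 32 and 59 and then 56 and 52. Markers of B cells made up 0.0167% ± 0.00088 of UMIs before stimulation and 0.0125% ± 0.012 after it (SD, n = 2). The spread after stimulation came mainly from the light chain gene Iglc2, which had 5882 UMIs in stimulated replicate 1 and 0 in replicate 2, and in part from Ighm. Myeloid and dendritic markers went from 0.00646% ± 0.00018 to 0.0174% ± 8e-05 of UMIs, with 4 of 10 tested members higher and 2 lower. The 4 included the MHC class II genes Cd74, with 34 and 47 UMIs before and 1475 and 1211 after stimulation, and H2-Ab1, described below. Markers of NK cells stayed at or under 0.000727% in the mean and those of γδ T cells at or under 0.00184%, and hemoglobin genes had at most 5 UMIs in any sample. The part of such cells in the results was not tested.

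Stimulation changed most of the transcriptome. Of 15262 genes tested, 5647 rose (37%) and 4872 fell (31.9%), with a median size of 1.15 on the log2 scale among called genes. More than 4-fold changes were found for 2046 of the genes that rose and 1006 of those that fell. The median of all genes was 0.08. Without the TMM factors it would be 0.43, and the numbers would be 7451 higher and 3279 lower. In the mean over all cells, in which the deep stimulated cells weigh most, nearly all genes had more UMIs per cell. The ratio of UMIs per cell had a median of 4.6 and was above 1 for 93.7% of genes. A fall in CPM is therefore often not a fall in mean UMIs per cell. Of the 4872 genes that fell in CPM, 3955 had more UMIs per stimulated cell than per unstimulated cell, and 917 had fewer. In these 917 the loss of the transcript was larger than the gain in mRNA captured per cell.

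The results were repeated in cells under 10% mitochondrial UMIs, in which 5720 of 14549 genes rose (39.3%) and 4817 fell (33.1%). Of the 5647 genes that rose over all cells, 5469 were tested in these cells, 4967 rose again, 13 fell, and 489 were not called. Of the 4872 that fell, 4817 were tested, 4172 fell again, 58 rose, and 587 were not called. Among the lists of genes described below, the cytosolic ribosomal proteins had 8 members with opposite calls in the 2 sets of cells, the mitochondrially encoded genes 7, and the actin cytoskeleton 4, and no other list had more than 3.

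**Figure D2:**
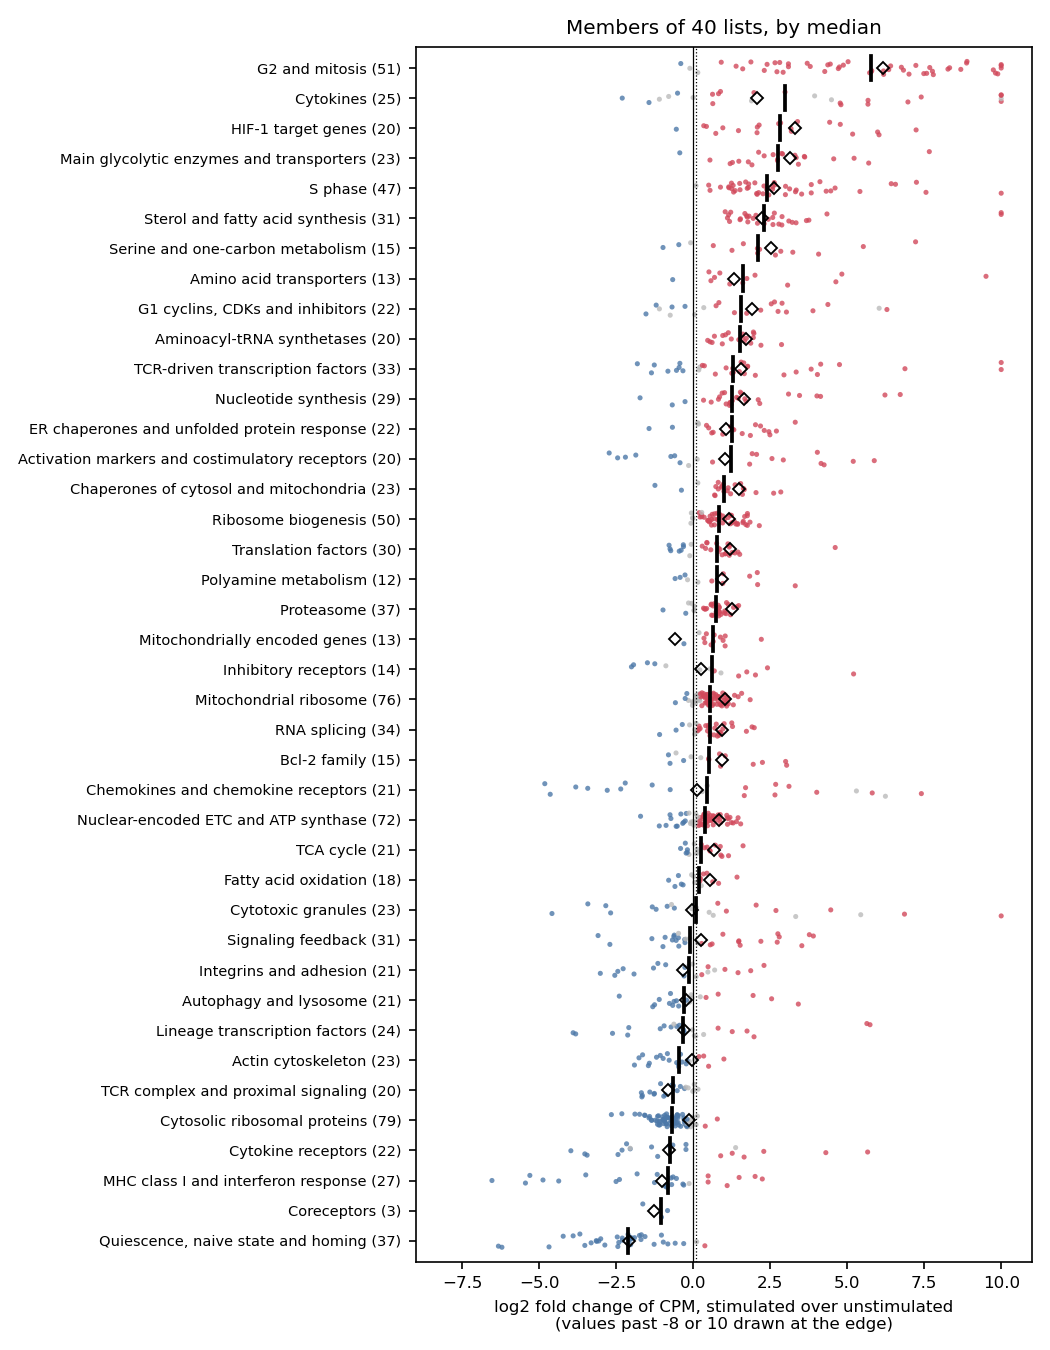
Log2 fold changes of CPM (stimulated over unstimulated WT) of the members of the gene lists, 1 point for each gene. Red points were called higher, blue points called lower, and gray points not called. Bars mark the median of each list, diamonds the median in cells under 10% mitochondrial UMIs, the dotted line the median of all genes (0.08), and brackets the number of genes tested, with values beyond the axis drawn at its edge. G2 and mitosis lay farthest to the right (median 5.78), and quiescence, naive state and homing farthest to the left (median −2.11).

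The largest gains of mRNA were in genes of respiration, glycolysis, and protein synthesis. By the gain in mean CPM the first 10 genes were mt-Co2, mt-Co3, mt-Co1, mt-Atp6, Gapdh, Rps2, Npm1, Hsp90ab1, Ptma, and mt-Nd1. Of all UMIs of a sample they held 3.613% and 3.555% before stimulation and 9.02% and 8.193% after it. Of these genes 5 are encoded by mitochondrial DNA, and those 5 fell or were not called in cells under 10% mitochondrial UMIs. Gapdh, a glycolytic enzyme, stood at 375 and 366 CPM in unstimulated samples and at 3561 and 3977 in stimulated samples (log2 fold change 3.35 ± 0.094). Npm1, a nucleolar chaperone of ribosome assembly, went from 1001 and 1068 to 3572 and 3442 CPM (log2 fold change 1.76 ± 0.085). The chaperone Hsp90ab1 went from 696 and 720.1 to 2881 and 2951 CPM, and Ptma, an acidic nuclear protein of proliferating cells, from 1163 and 1118 to 3189 and 3368. For each of these genes both stimulated samples lay above both unstimulated ones, and each rose in cells under 10% as well (3.99, 2.29, 2.59, and 2.10 in that order).

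The largest losses included noncoding RNA, small ribosomal proteins, and thymosins. The 10 genes with the largest loss of mean CPM were Gm42418, Malat1, Rps29, Rps27, Tpt1, Cmss1, Rps24, Tmsb4x, Cdk8, and Tmsb10. Together they went from 15.78% and 15.77% to 4.451% and 4.819% of all UMIs of a sample. Gm42418, a locus that overlaps a ribosomal RNA element and can collect its reads, had 63750 and 65160 CPM before and 13110 and 14410 after stimulation. Malat1, a nuclear long noncoding RNA, had 19700 and 18920 and then 3736 and 3509 (log2 fold change −2.41 ± 0.08). Both stimulated samples lay far below both unstimulated samples in each gene. Which RNA the reads of Cmss1 and Cdk8 came from was not tested. The translationally controlled protein gene Tpt1 fell by 2.10 on the log2 scale and the actin-binding peptide gene Tmsb10 by 1.90. In UMIs per cell the stimulated over unstimulated ratio was above 1 for 6 of the 10, from 1.01 for Cmss1 to 1.59 for Tmsb4x, and below 1 for Cdk8 (0.536), Rps27 (0.692), Malat1 (0.816), and Gm42418 (0.929). In cells under 10% it was above 1 for 7 of them, up to 4.21 for Tmsb4x, and below 1 for Cdk8 (0.419), Cmss1 (0.797), and Malat1 (0.917).

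**Figure D3:**
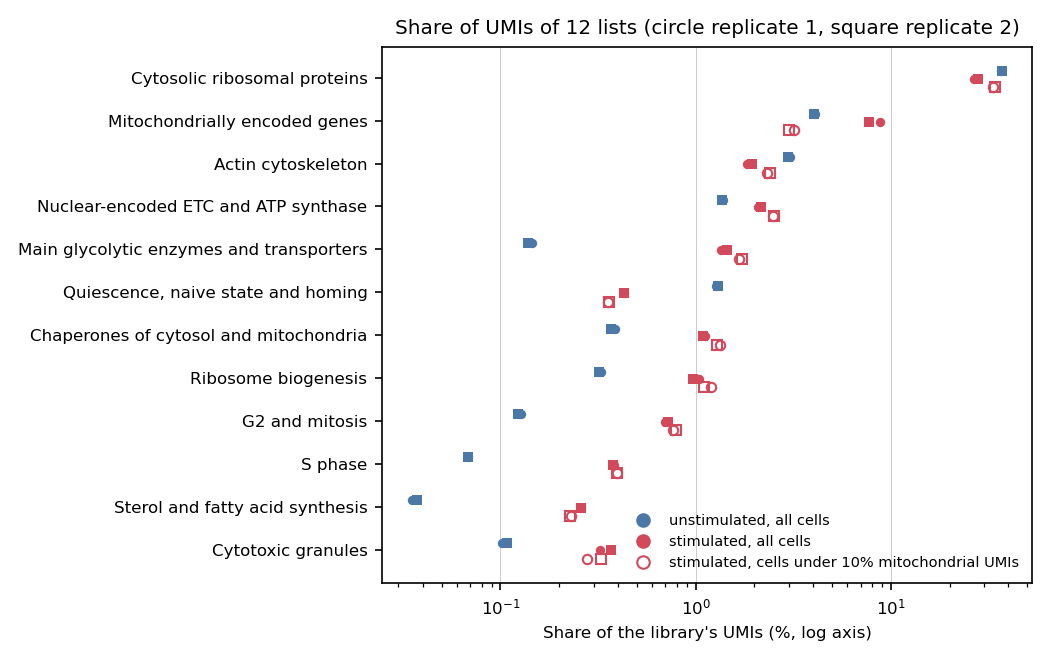
Share of all UMIs (percent, log axis) held by 12 gene lists in each of the 4 WT samples, blue for unstimulated and red for stimulated samples, with open symbols for stimulated cells under 10% mitochondrial UMIs. Cytosolic ribosomal proteins held 37.1% before and 27.4% after stimulation (means of 2 samples), while glycolytic genes went from 0.141% to 1.39% and G2 and mitosis genes from 0.125% to 0.712%.

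By the fitted log2 fold change, the 10 largest rises among genes with at least 20 CPM were in genes with 0 or 1 UMI before stimulation. For genes at 0 UMIs only a lower bound of the fold is known, so their rank against other genes is not settled. Atf3, a stress-responsive transcription factor, and Batf3, a partner of JUN and IRF proteins, had 0 UMIs in both unstimulated samples and 48.9 and 55 and 48 and 52.3 CPM, respectively, in the stimulated ones. Taking 3 UMIs over the unstimulated samples as the most that 0 allows, this was at least 359.7-fold for Atf3 and at least 346.9-fold for Batf3. H2-Ab1, the β chain of an MHC class II molecule, likewise went from 0 UMIs to 45.7 and 58 CPM, at least 359.7-fold. Its partner chain H2-Aa had 0 UMIs before stimulation and only 35 and 5 after it. The retinoic acid-binding protein gene Crabp2 (at least 206.5-fold), the replication initiation factor Mcm10 (at least 204.2-fold), the transglutaminase Tgm2 (at least 194-fold), the DNA glycosylase Neil3 (at least 184.4-fold), the GDP dissociation inhibitor Arhgdig (at least 176.8-fold), and BC030867 (at least 169.7-fold) followed. The metallothionein Mt1 had 1 UMI before stimulation and 262 and 459 CPM after it, a ratio of 7551 with a 95% counting interval of 1355 to 2.982e+05.

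Of the 10 genes with the largest falls, 5 were of the interferon-inducible p200 family. Ifi208 had 365 and 553 UMIs before stimulation and 3 and 0 after it, a ratio of unstimulated to stimulated CPM of 1606 (95% counting interval 549.4 to 7786). Ifi206 went from 140.1 and 128 to 0.383 and 0.513 CPM (log2 fold change −8.21 ± 0.12), Ifi209 from 134 and 128 to 0.957 and 0.938, Ifi213 from 55.3 and 54.5 to 0.0957 and 0, and Ifi214 from 53.8 and 52.8 to 0.0765 and 0.0354. Members of this family are similar in sequence and lie side by side, so how their reads were divided among them is uncertain. The interferon-induced Rtp4 went from 21.8 and 32.6 to 0.0191 and 0.106 CPM, and Cd7, a surface protein of T cells, from 39.4 and 38.1 to 0.21 and 0.354. Gm30948 also belonged to the 10, as did S1pr1 and Klf2, described with the homing genes.

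The machinery that receives the signal fell. Of 20 genes of the TCR complex and its first kinases and adaptors, 14 fell and 6 were not called, with a median of −0.66 (−0.80 in cells under 10%). Trbc2, the constant region of the TCR β chain, stood at 1696 and 1837 CPM before and 546 and 557 CPM after stimulation (log2 fold change −1.68 ± 0.079, adjusted p = 4.75e-08). The CD3 chain gene Cd3e went from 510.5 and 518 to 157 and 168 CPM (log2 fold change −1.66 ± 0.071), and Cd3g from 896 and 943 to 290 and 297. Lck, the kinase that first phosphorylates the CD3 chains, fell from 389 and 395 to 146 and 150.3 CPM, and the adaptor Lat by 0.52 on the log2 scale. Lat did not pass the test in cells under 10% (−0.096). All these falls were relative: UMIs per cell were higher after stimulation for each gene, with ratios of 1.36 for Trbc2, 1.37 for Cd3e, and 1.64 for Lck. The coreceptor genes Cd4, Cd8a, and Cd8b1 all fell over all cells (−1.03, −0.83, and −1.63), while CD4 cells went from 66.9% and 63.1% of cells to 50.4% and 53.7%.

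Activation markers rose strongly but not together. Of 20 activation markers and costimulatory receptors, 11 rose and 7 fell (median 1.23), and their summed share of UMIs went from 0.135% ± 0.0026 to 0.406% ± 0.005. Tnfrsf9 (4-1BB), a costimulatory receptor of activated T cells, went from 10.8 and 9.03 to 528 and 633 CPM (log2 fold change 5.88 ± 0.18, adjusted p = 3.74e-09). Tnfrsf4 (OX40) went from 23.3 and 19.1 to 774 and 775 CPM (log2 fold change 5.20 ± 0.11), and Il2ra (CD25), the chain that gives the IL-2 receptor its high affinity, from 17.7 and 18.7 to 335 and 359.5 (log2 fold change 4.25 ± 0.15). For these genes the stimulated samples lay more than 10-fold above the unstimulated ones and did not overlap with them. Tfrc, the transferrin receptor, rose from 12.7 and 12.9 to 229.5 and 227 CPM (log2 fold change 4.15 ± 0.094), Tnfrsf18 (GITR) by 2.93, Cd44 by 1.83, and Icos by 0.63.

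The early activation marker Cd69 did not follow them. It stood at 112 and 97.4 CPM before and 102 and 86.7 CPM after stimulation (log2 fold change −0.15 ± 0.15, adjusted p = 0.41), and the samples overlapped. Among markers that fell, the costimulatory receptor Cd27 went from 238 and 240.4 to 52.6 and 51.7 CPM, Cd40lg, the ligand of CD40 on helper T cells, from 102 and 96.5 to 19.8 and 16.6, and Ly6c1 from 52.7 and 60.1 to 6.29 and 10.7. Cd28 itself fell by 0.42 on the log2 scale.

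**Figure D4:**
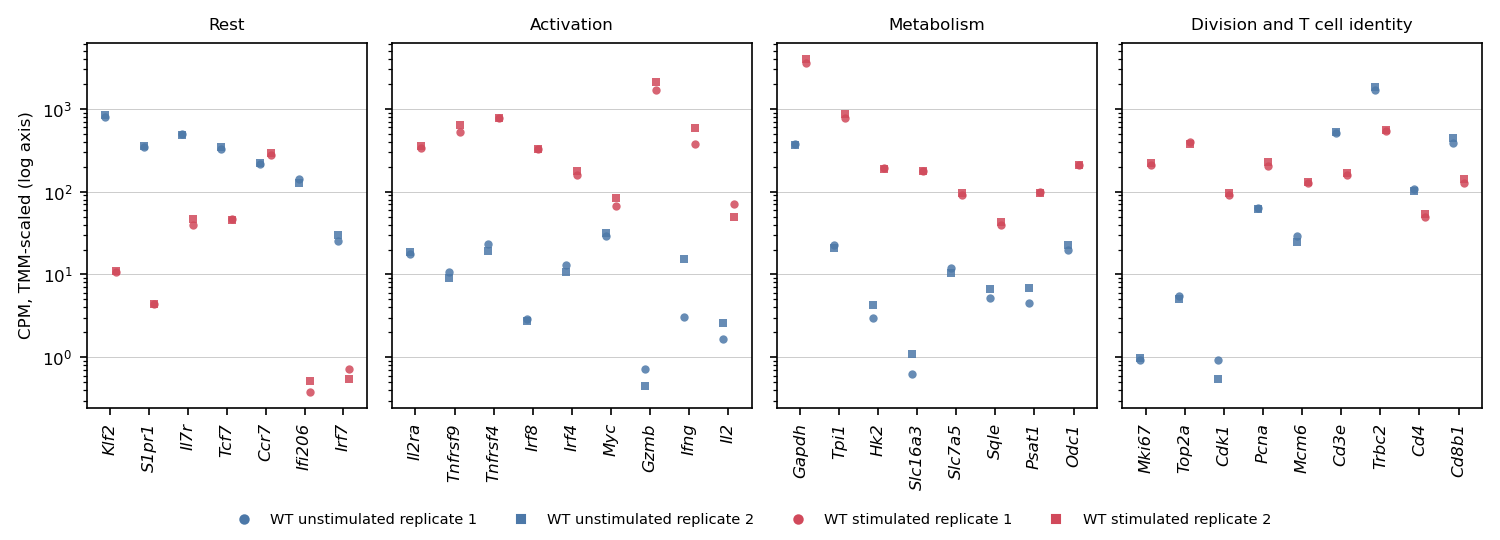
CPM (log axis) of genes of rest, activation, metabolism, and division and T cell identity in each of the 4 WT samples, blue for unstimulated and red for stimulated samples, circles for replicate 1 and squares for replicate 2. Il2ra went from 17.7 and 18.7 to 335 and 359.5 CPM and Gzmb from 0.725 and 0.452 to 1679 and 2085, and Klf2 went from 789 and 833 to 10.8 and 11.1.

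Of 14 inhibitory receptors and related genes, 6 rose and 4 fell, with a median of 0.62 (0.26 in cells under 10%). Lag3, an inhibitory receptor for MHC class II, had 1.55 and 4.88 CPM before and 114 and 131 after stimulation (log2 fold change 5.21 ± 0.27). Ctla4, which competes with CD28 for its ligands, went from 72.2 and 65.2 to 269.9 and 288 CPM (log2 fold change 2.02 ± 0.18), and Cd200 from 16.4 and 16.6 to 86.1 and 89.7. Pdcd1 (PD-1) rose by 1.48 but stayed low, at 16.9 and 15.3 CPM. Cd96 fell from 97.4 and 92 to 23.7 and 23.6 CPM, and Tox, a transcription factor known from chronically stimulated T cells, from 313 and 294 to 142 and 114.

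Transcription factors driven by the TCR were mostly higher, with 23 of 33 up and 8 down (median 1.31, and 1.55 in cells under 10%). Besides Atf3 and Batf3, Irf8 went from 2.9 and 2.71 to 329 and 329 CPM (log2 fold change 6.88 ± 0.31) and Irf4, whose level follows the strength of the TCR signal, from 13 and 10.7 to 159.5 and 177 (log2 fold change 3.83 ± 0.26). The orphan receptor Nr4a3 went from 6.52 and 5.6 to 98.4 and 99.7 CPM and Nr4a1 from 13 and 10.4 to 45.7 and 48.9, and Bhlhe40 from 2.07 and 3.07 to 62.3 and 78. Myc, the driver of growth and metabolism in activated T cells, rose from 29.1 and 32.1 to 66.5 and 82.8 CPM (log2 fold change 1.29 ± 0.12), and Hif1a from 71.9 and 60.7 to 196 and 218 (log2 fold change 1.64 ± 0.14). Nfkb1 rose by 1.76. In contrast, the immediate early genes Fos and Jun fell by 1.35 and 0.82 on the log2 scale, and Ikzf2 went from 149 and 116 to 42.3 and 33.5 CPM.

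Feedback regulators of signaling moved in both directions, with 14 of 31 higher and 13 lower (median −0.11). The median was 0.27 in cells under 10%. Rgs16, a regulator of G protein signaling, went from 0.828 and 1.63 to 17.9 and 19.6 CPM (log2 fold change 3.90 ± 0.25), Cish, induced by cytokine signaling through STAT5, from 7.66 and 3.88 to 70.7 and 84.3, and the phosphatase Dusp4 from 1.97 and 1.81 to 22.2 and 21.4. Cblb, a ubiquitin ligase that restrains TCR signaling, rose by 1.49. Dgka, which removes the second messenger diacylglycerol and is known from anergic cells, fell from 349.9 and 376 to 42.8 and 42.7 CPM (log2 fold change −3.08 ± 0.072), and Dusp10 from 123 and 109 to 16.8 and 18.8. The NF-κB inhibitor Tnfaip3 (A20) fell by 1.34. Dgka and Dusp10 had fewer UMIs per cell after stimulation too, with ratios of 0.512 and 0.67.

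Among 24 transcription factors that define T cell lineages, 6 rose and 13 fell (median −0.31). Zeb2, a factor of effector CD8+ T cells, rose from 1.24 and 0.813 to 54 and 54.9 CPM (log2 fold change 5.74 ± 0.34), Zbtb32 from 0.621 and 0.903 to 36.4 and 40.9 (log2 fold change 5.64 ± 0.18), and Tbx21 (T-bet), the factor of type 1 responses, from 7.87 and 9.84 to 36.7 and 33.4 (log2 fold change 1.98 ± 0.17). Maf fell from 45.9 and 35.3 to 2.62 and 2.81 CPM (log2 fold change −3.89 ± 0.15), Foxp3, the factor of regulatory T cells, from 12.1 and 10.6 to 1.01 and 0.602, and Bcl6, the factor of follicular helper cells, from 30.4 and 33 to 5.7 and 4.65. Foxp3 and Maf also fell per cell, with UMI ratios of 0.31 and 0.292. Fewer regulatory T cells and less Foxp3 mRNA in each cannot be told apart in these sums.

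Of 25 cytokine genes tested, 15 rose and 3 fell (median 2.99, or 0.89 with genes at 0 UMIs before stimulation set to their lower bounds), and the median was 2.07 in cells under 10%. Il2, the main growth factor of T cells, went from 1.66 and 2.62 to 71.4 and 49.5 CPM (log2 fold change 4.80 ± 0.38). Ifng stood at 3.1 and 15.3 CPM in the unstimulated samples and 379.9 and 589 in the stimulated ones (log2 fold change 5.67 ± 0.47). The 2 stimulated samples thus differed by more than 1.5-fold in Ifng, but both lay far above both unstimulated samples. Lta, a cytokine of lymphoid organ formation, went from 5.9 and 5.24 to 152 and 152 CPM. Lif and Il3 were at 0 UMIs before stimulation and rose at least 139.5-fold and 32.33-fold, and Il24 had 293 and 744 UMIs after stimulation against 0. Csf2 had 1 UMI before and 4.21 and 8.81 CPM after stimulation.

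Mif, a cytokine that resting T cells already expressed, rose from 262 and 255 to 1903 and 2196 CPM (log2 fold change 2.98 ± 0.084), and was the most abundant of the named cytokine mRNAs after stimulation. Tnf rose only by 0.64, from 19.2 and 21.1 to 30.5 and 32.5 CPM. Il16 fell from 84.2 and 95.1 to 18.2 and 18.3 CPM (log2 fold change −2.30 ± 0.082), and Ltb, the partner of Lta, from 954 and 1022 to 374 and 358.

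Cytokine receptors went the other way, with 14 of 22 lower and 6 higher (median −0.75). Both chains of the IL-12 receptor rose, Il12rb2 from 2.59 and 2.62 to 128 and 137 CPM (log2 fold change 5.67 ± 0.23) and Il12rb1 from 2.07 and 1.35 to 33 and 34.1 (log2 fold change 4.31 ± 0.17). Il2rb rose by 1.66, whereas the common chain Il2rg fell by 1.15. Il18r1 fell from 57.5 and 63.2 to 4.02 and 3.7 CPM, Il6ra from 121 and 132 to 11.2 and 12.1, and Il7r, the receptor of the survival cytokine IL-7, from 502 and 485 to 39.8 and 46.6 (log2 fold change −3.52 ± 0.16). Il18r1, Il6ra, and Il7r also had fewer UMIs per cell, with ratios of 0.278, 0.4, and 0.381.

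Of 21 chemokines and chemokine receptors, 8 rose and 9 fell (median 0.46, or 0.30 with genes at 0 UMIs set to their bounds). Xcl1, which attracts cross-presenting dendritic cells, rose from 7.04 and 5.06 to 106 and 87.8 CPM (log2 fold change 4.01 ± 0.41). Ccl4 had 4.14 and 42.8 CPM before and 166 and 138 after stimulation, and Ccl3 0.31 and 34 before and 64.6 and 48.3 after. In both genes most unstimulated UMIs came from replicate 2, and Ccl3 passed the test narrowly (adjusted p = 0.0497) and missed it in cells under 10% (adjusted p = 0.0711). Ccl9 had 0 UMIs before stimulation and 19 and 52 after it. Ccl5 fell from 355 and 367 to 10.9 and 18 CPM (log2 fold change −4.64 ± 0.24), and the gut homing receptor Ccr9 from 33.1 and 32 to 1.44 and 0.885.

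Gzmb, the serine protease with which cytotoxic T cells kill, had the largest rise among the genes of cytotoxic granules. It went from 0.725 and 0.452 to 1679 and 2085 CPM (log2 fold change 11.66 ± 0.36, adjusted p = 4.04e-09), while the share of the whole list went from 0.105% ± 0.0041 to 0.348% ± 0.032 of UMIs. The list was split, with 7 of 23 members higher and 8 lower (median 0.10). The granzyme inhibitor Serpinb6b rose from 9.73 and 9.12 to 196 and 221 CPM. The pore-forming protein gene Prf1 stood at 22.5 and 21.1 before and 25.1 and 37.4 after stimulation (log2 fold change 0.52 ± 0.24, adjusted p = 0.0743), and did not pass the test. Gzmk fell from 2.48 and 2.53 to 0.0957 and 0.106 CPM and the NK receptor chain Klrd1 from 126 and 131 to 17.5 and 18.5.

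Nearly all genes of the resting state fell in CPM. Of 37 genes of quiescence, the naive state, and homing, 35 fell and 1 rose (median −2.11, and −2.07 in cells under 10%), and their share of UMIs went from 1.28% ± 0.021 to 0.43% ± 0.001. Klf2, which keeps T cells quiescent and drives the genes of lymphoid homing, fell from 789 and 833 to 10.8 and 11.1 CPM (log2 fold change −6.21 ± 0.1, adjusted p = 4.45e-10). S1pr1, the receptor with which T cells leave lymphoid organs and a target of KLF2, fell from 345 and 357 to 4.44 and 4.35 CPM (log2 fold change −6.32 ± 0.15). The samples of the 2 states were far apart for both genes, and UMIs per cell fell as well, to 0.0589 and 0.0544 of the unstimulated value. The list as a whole did not fall in this measure, since 19 of the 37 genes had more UMIs per cell after stimulation and 18 had fewer, with a median ratio of 1.006.

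Klf3 fell from 196 and 228 to 7.79 and 8.78 CPM, the antiproliferative gene Btg1 from 1240 and 1258 to 128 and 124, and Txnip, an inhibitor of glucose uptake, from 202 and 234 to 24.5 and 27.7. The naive state factors Tcf7 and Lef1 fell by 2.87 and 2.03 on the log2 scale, and Foxp1 by 0.82. The exception was Ccr7, the chemokine receptor of lymph node entry, with 216 and 219 CPM before and 274 and 291 after stimulation (log2 fold change 0.38 ± 0.12, adjusted p = 0.0205).

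Of 21 integrins and adhesion genes 6 rose and 10 fell (median −0.15). The tetraspanin Cd81 rose by 2.30, while the integrin chains Itgae and Itga4 fell by 3.01 and 2.54 on the log2 scale. Of 23 genes of the actin cytoskeleton, 17 fell and 4 rose (median −0.47), but in cells under 10% the numbers were 11 and 9 (median −0.02). Actb fell over all cells from 5339 and 5072 to 3715 and 3813 CPM (−0.47) and rose in cells under 10% (0.15). Tmsb4x and Coro1a, a regulator of actin filaments, fell in both (−1.45 and −0.87; −1.42 and −0.89), and the filament-capping gene Capg rose in both (1.00 and 1.55). The list held 2.33% and 2.4% of UMIs in stimulated cells under 10% but 0.734% and 0.786% in the others, against 3.02% ± 0.034 before stimulation.

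Glycolysis was induced along its whole length. Of 23 enzymes and transporters, 22 rose and 1 fell (median 2.74, and 3.13 in cells under 10%), and the share of UMIs they held went from 0.141% ± 0.0048 to 1.39% ± 0.072. The triose phosphate isomerase gene Tpi1 went from 23 and 20.8 to 767 and 866 CPM (log2 fold change 5.22 ± 0.14, adjusted p = 2.61e-09). Hk2, the inducible hexokinase, went from 3 and 4.25 to 193 and 188 CPM (log2 fold change 5.70 ± 0.21), and Pgk1 from 79.6 and 79.3 to 921 and 1036 (log2 fold change 3.62 ± 0.11). Ldha, which makes lactate, went from 212 and 193 to 1412 and 1557 CPM, and the lactate exporter Slc16a3 (MCT4) from 0.621 and 1.08 to 176 and 178 (log2 fold change 7.67 ± 0.45). In every one of these genes the stimulated samples lay above the unstimulated ones by more than their spread.

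Of the glucose transporters, Slc2a3 (GLUT3) rose by 3.42 and Slc2a1 (GLUT1) by 1.91. Pfkfb3, which makes an activator of glycolysis, rose by only 0.55. The one fall was Ldhb, the other lactate dehydrogenase subunit, from 25.7 and 24.7 to 18.3 and 19.1 CPM, which was not called in cells under 10% (0.13).

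Targets of HIF-1, the factor that responds to low oxygen and is also induced by the TCR, rose in 19 of 20 cases (median 2.81). Egln3, a prolyl hydroxylase, went from 1.86 and 2.89 to 139.7 and 167 CPM (log2 fold change 5.99 ± 0.25), Vegfa from 0.207 and 0.361 to 17.7 and 20.7, and Bnip3, a mitophagy receptor, from 3.1 and 3.16 to 101 and 126. The collagen prolyl hydroxylase P4ha2 had 3 UMIs before stimulation and 22 and 22.8 CPM after it, a ratio of 154.8 (95% counting interval 52.97 to 750.7). Pdk1, which restrains entry of pyruvate into the TCA cycle, was the member that fell, from 125 and 121 to 84.3 and 84.5 CPM (log2 fold change −0.55 ± 0.11).

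In the TCA cycle 11 of 21 genes rose and 5 fell (median 0.27), and in cells under 10% 17 rose and 2 fell (median 0.68). Fh1, fumarase, rose from 23.2 and 23.5 to 68.7 and 74.9 CPM (log2 fold change 1.62 ± 0.11) and Cs, citrate synthase, from 47.4 and 43.2 to 81.4 and 91.7. Sdha, the catalytic subunit of complex II that the other genotype lacks, stood at 98 and 99.1 CPM in unstimulated WT samples and 74.7 and 73.9 in stimulated ones (log2 fold change −0.41 ± 0.066, adjusted p = 3.65e-04). The other subunits Sdhb, Sdhc, and Sdhd rose by 0.37, 0.45, and 0.88. Per cell, UMIs of Sdha were 3.28-fold higher after stimulation and those of Sdhd 8.02-fold.

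ATP synthase and the electron transport chain (ETC) had 72 nuclear genes tested, of which 52 rose and 12 fell (median 0.39, and 0.85 in cells under 10%). Ndufab1, a subunit of complex I, rose from 91 and 84.5 to 250.3 and 261 CPM (log2 fold change 1.54 ± 0.084) and cytochrome c (Cycs) from 115 and 112 to 304 and 321 (log2 fold change 1.46 ± 0.077), while Cox7a2l, a factor of supercomplex assembly, fell from 600 and 617 to 182 and 191 (log2 fold change −1.71 ± 0.076). The mitochondrial ribosome had 61 of 76 genes higher and 3 lower (median 0.56). In cells under 10% 75 of the 76 rose. Mrpl45 rose by 1.85, and Mrpl24 fell by 0.57 over all cells. Fatty acid oxidation had 8 of 18 genes higher and 5 lower. Etfb, which passes its electrons on, rose by 1.43, and Hadhb and Cpt1a, the entry step, fell by 0.79 and 0.59 on the log2 scale.

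The 13 mRNAs encoded by mitochondrial DNA depended on which cells were summed. Over all cells 11 rose and 1 fell (median 0.65), and in cells under 10%, which are by definition low in them, 1 rose and 9 fell (median −0.58). They held 4.07% ± 0.056 of UMIs before stimulation and 8.26% ± 0.78 after it. The latter was made of 3.19% and 3.02% in stimulated cells under 10% and 20.9% and 19.7% in the remaining cells. mt-Co2 went from 6865 and 6662 to 14710 and 13150 CPM over all cells (log2 fold change 1.04 ± 0.077) and changed by −0.23 in cells under 10%. The same pair of values was 0.69 and −0.60 for mt-Co3, 0.43 and −0.91 for mt-Atp6, and 1.04 and −0.071 (not called) for mt-Nd1. mt-Nd6 rose in both (2.21 and 1.01) and mt-Nd3 fell in both (−0.30 and −1.44).

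All 31 genes of sterol and fatty acid synthesis rose, over all cells and in cells under 10% (medians 2.31 and 2.23), from 0.0362% ± 0.0016 to 0.258% ± 0.0013 of UMIs. Sqle, the squalene epoxidase of cholesterol synthesis, went from 5.18 and 6.68 to 39.4 and 42.8 CPM (log2 fold change 2.78 ± 0.15, adjusted p = 1.49e-07). Fasn, fatty acid synthase, rose by 1.74. The desaturase Scd2 went from 10.6 and 15.2 to 250.5 and 277 CPM (log2 fold change 4.34 ± 0.16), while Scd1 and Fads2 had 0 UMIs before stimulation and rose at least 169.9-fold and 119.6-fold. Srebf2, the factor that drives sterol genes, rose by 1.04, less than the median of the list.

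Amino acid transporters rose in 12 of 13 cases (median 1.61). Slc7a5 and Slc3a2, the chains of the large neutral amino acid transporter LAT1, went from 11.9 and 10.5 to 90.2 and 97 CPM (log2 fold change 3.07 ± 0.11) and from 67 and 77.2 to 170.3 and 159 (log2 fold change 1.19 ± 0.084). The cystine transporter Slc7a11 had 0 UMIs before stimulation and rose at least 19.18-fold, to 3.16 and 2.42 CPM. Slc38a2 was the one that fell (−0.66).

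Serine and one-carbon metabolism, which supplies purine and thymidine synthesis, had 12 of 15 genes higher and 2 lower (median 2.09). Psat1 went from 4.55 and 6.86 to 97.8 and 96.7 CPM (log2 fold change 4.07 ± 0.13), Phgdh, which commits a glycolytic intermediate to serine, from 52 and 48.1 to 331 and 307 (log2 fold change 2.67 ± 0.075), and the mitochondrial enzymes Shmt2 and Mthfd2 rose by 2.85 and 2.16. Gldc had 0 UMIs before stimulation and 27 and 35 after it, at least 3.94-fold. Mthfd2l, a relative of Mthfd2, fell by 0.98.

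Of 29 genes of nucleotide synthesis, 26 rose and 3 fell (median 1.27). Thymidine kinase, Tk1, went from 0.621 and 0.452 to 56 and 57 CPM (log2 fold change 6.72 ± 0.15), Rrm2, a subunit of ribonucleotide reductase, from 1.14 and 1.08 to 81.3 and 85.5, and Tyms from 4.66 and 4.51 to 81.5 and 79.9. Ctps2 fell from 69.2 and 68.7 to 21.4 and 20.5 CPM. Of 12 genes of polyamine metabolism 7 rose and 3 fell (median 0.79), led by Odc1, its first enzyme and a MYC target, from 19.6 and 22.6 to 212 and 209 CPM (log2 fold change 3.31 ± 0.13), with Srm at 2.09 and Oaz2 at −0.58.

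Ribosome assembly rose while ribosomal protein mRNAs fell. Of 50 genes of ribosome biogenesis 45 rose and 5 were not called (median 0.83), and in cells under 10% all 50 rose (median 1.18). Ncl, the nucleolar protein nucleolin, went from 349.5 and 336 to 1571 and 1468 CPM (log2 fold change 2.15 ± 0.069), Nop56 from 79.2 and 73.5 to 252 and 247, and Nolc1 from 42 and 37.9 to 148 and 139.9. Their share of UMIs went from 0.323% ± 0.0045 to 1.005% ± 0.045.

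Of 79 cytosolic ribosomal proteins, 66 fell and 2 rose (median −0.68). In cells under 10% 37 fell and 21 rose (median −0.14). Rps27 went from 13440 and 13620 to 1923 and 2377 CPM (log2 fold change −2.65 ± 0.11), Rps29 from 16500 and 16690 to 3994 and 4969 (log2 fold change −1.89 ± 0.11), and Rps24 from 12170 and 12410 to 3893 and 4352. Rps2 and Rpl7a rose by 0.79 and 0.39. Even so, the mean over all stimulated cells was higher, 7621 UMIs in the list against 3017, and the deep cells weigh most in it. In stimulated cells with at least 10% mitochondrial UMIs, the list held 12.1% and 12.7% of a mean of 12634.7 and 12414.3 UMIs per cell. Before stimulation it held 36.9% and 37.3% of 7847 and 8407, so the gain did not hold in these cells. Ribosomal protein genes have many processed pseudogenes, and how reads were divided between copies is uncertain.

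Promoters of growth genes were searched for 3 motifs, the E-box CACGTG, which MYC binds, the E2F site TTTNGCGC, and the AP-1 site TGANTCA. Sequences were the RefSeq promoters of GRCm38.p6, from 250 bases before to 50 after the start of each gene, read on both strands, and 43 of the 50 ribosome biogenesis genes and 37 of the 47 S phase genes had one. The E-box was in 12 of the 43 ribosome biogenesis promoters (27.9%), against 11.5% of the 11171 promoters of all genes tested and 8.09% of all in the table. It was also in 16.2% of S phase promoters, 2.27% of those of G2 and mitosis genes, and 3.23% of those of quiescence genes. The E2F motif was in 13 of 37 S phase promoters (35.1%), against 2.72% and 1.57%. It was found in 3 of 43 ribosome biogenesis promoters (6.98%), 3 of 44 of G2 and mitosis genes (6.82%), and 2 of 31 of quiescence genes (6.45%). These shares lay above that of all genes tested but rest on very few promoters. The AP-1 motif was in 2.7% of S phase promoters and in 0 of the 43 ribosome biogenesis promoters, against 6.5% of those of genes tested. A match is a description of these letters only. Shown here are the 140 bases before the start, 5′ to 3′ on the strand of the gene, of 2 ribosome biogenesis genes with an E-box and 2 S phase genes with the E2F motif, motifs in capitals: Nop2 at chr6:125131743-125131882 (plus strand), Imp4 at chr1:34439689-34439828 (plus strand), Mcm6 at chr1:128359706-128359845 (minus strand), and Orc1 at chr4:108579314-108579453 (plus strand).
Nop2: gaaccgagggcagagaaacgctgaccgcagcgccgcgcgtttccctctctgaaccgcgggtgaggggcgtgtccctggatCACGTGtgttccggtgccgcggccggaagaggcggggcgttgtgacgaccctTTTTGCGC
Imp4: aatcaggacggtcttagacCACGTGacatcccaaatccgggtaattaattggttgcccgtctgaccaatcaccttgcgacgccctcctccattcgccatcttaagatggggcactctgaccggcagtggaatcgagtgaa
Mcm6: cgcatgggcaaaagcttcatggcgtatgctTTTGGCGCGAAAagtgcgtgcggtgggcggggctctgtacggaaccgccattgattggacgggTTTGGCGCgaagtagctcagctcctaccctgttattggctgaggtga
Orc1: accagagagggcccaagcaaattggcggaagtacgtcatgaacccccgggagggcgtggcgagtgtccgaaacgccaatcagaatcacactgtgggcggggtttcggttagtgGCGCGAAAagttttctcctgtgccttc

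Nop2, an rRNA methyltransferase with both motifs in its promoter, rose from 10.1 and 10.2 to 26.8 and 26.5 CPM (log2 fold change 1.39 ± 0.085), and Imp4, a processing factor, from 36.5 and 36 to 42.5 and 40.6 (log2 fold change 0.20 ± 0.069). Mcm6, a subunit of the replicative helicase with 3 E2F motifs in its promoter, 2 of them overlapping, rose from 29.1 and 24.8 to 127 and 132 CPM (log2 fold change 2.27 ± 0.089), and Orc1, of the origin recognition complex, from 2.59 and 1.99 to 32.8 and 32.1 (log2 fold change 3.83 ± 0.15). The pairs thus share a motif and differ in the size of their rise.

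Other parts of protein synthesis also rose. Translation factors had 21 of 30 genes higher and 7 lower (median 0.79). Eif4ebp1, a repressor of translation that mTOR inactivates, rose from 8.59 and 7.77 to 199.7 and 199.5 CPM (log2 fold change 4.61 ± 0.15), and the elongation factor Eef1a1 fell from 6166 and 6142 to 3398 and 3766. All 20 aminoacyl-tRNA synthetases rose, also in cells under 10% (medians 1.54 and 1.72). Cars, for cysteine, went from 5.18 and 5.06 to 39.2 and 35.7 CPM (log2 fold change 2.87 ± 0.16), and Hars, for histidine, rose by 0.47. Of 34 splicing genes 26 rose and 3 fell (median 0.55), with Snrpa1 at 1.99 and Srsf5 at −1.09.

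Chaperones of the cytosol and mitochondria rose in 20 of 23 cases and fell in 2 (median 1.00). Hspd1, the mitochondrial HSP60, went from 93.5 and 81.1 to 649.5 and 604 CPM (log2 fold change 2.85 ± 0.086) and Hsp90aa1 from 166 and 146 to 956 and 956, while Cct6a fell by 1.24. In the endoplasmic reticulum 17 of 22 genes rose and 2 fell (median 1.25). The ER chaperone Hspa5 (BiP) went from 119.5 and 115 to 444 and 407 CPM (log2 fold change 1.86 ± 0.076) and Trib3, induced by stress, from 1.55 and 1.53 to 15.7 and 15.1, but Dnajb9, a target of the unfolded protein response, fell from 56 and 55.5 to 21 and 20.4. Of 37 proteasome genes 30 rose and 2 fell (median 0.75). Psmd7 rose by 1.48, and Psmb10, of the immunoproteasome, fell by 0.98.

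Among the cell cycle genes, those of G2 and mitosis had the largest median rise of all lists. Of 51 genes of G2 and mitosis 48 rose and 1 fell (median 5.78, and 6.18 in cells under 10%), and they went from 0.125% ± 0.0026 to 0.712% ± 0.017 of UMIs. Mki67, the proliferation marker, stood at 0.932 and 0.993 CPM before and 212 and 219 after stimulation (log2 fold change 7.80 ± 0.19, adjusted p = 1.34e-09). Top2a went from 5.49 and 5.06 to 392 and 373 CPM (log2 fold change 6.18 ± 0.12), Cdk1, the mitotic kinase, from 0.932 and 0.542 to 90.4 and 96.9 (log2 fold change 7.01 ± 0.15), and cyclin B1 (Ccnb1) from 0.31 and 0.271 to 54.1 and 51.2. Hmmr and Ccna2 had 1 UMI each before stimulation, against 9562 and 5368 after it. Nuf2, of the kinetochore, had 0 and rose at least 123.6-fold. Smc4, of condensin, was already at 402 and 394 CPM in resting cells and fell to 292 and 311.

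Of 47 S phase genes 46 rose and 1 was not called (median 2.39), and in cells under 10% all 47 rose (median 2.62). Cdc6, which loads the helicase, had 3 UMIs before stimulation and 3044 after it, a ratio of 193.4 (95% counting interval 66.17 to 937.7). Pcna, the sliding clamp, went from 64 and 61.8 to 206 and 229.5 CPM (log2 fold change 1.79 ± 0.078). Rpa3 rose by only 0.51, with 40.5 and 65.8 CPM in the 2 stimulated samples.

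Among 22 genes of G1, 13 rose and 4 fell (median 1.54, or 1.09 with genes at 0 UMIs set to their bounds). Cdkn1a (p21), an inhibitor of cyclin-dependent kinases, rose from 0.207 and 2.62 to 105 and 129 CPM (log2 fold change 6.29 ± 0.36), E2f1 from 0.932 and 1.45 to 25.2 and 24.9 (log2 fold change 4.38 ± 0.16), and the G1 kinases Cdk4 and Cdk6 by 1.34 and 3.03. Of the D-type cyclins, Ccnd3 fell from 572 and 436 to 172 and 177 CPM, and Ccnd2 stood at 311 and 269 before and 303 and 298 after stimulation, with an adjusted p of 0.69.

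Of 27 genes of the interferon response and antigen presentation by MHC class I, 20 fell and 6 rose (median −0.83, and −1.01 in cells under 10%). H2-K1 and H2-D1, the class I heavy chains, fell by 0.86 and 0.83 on the log2 scale, with reads shared among similar genes, and B2m went from 1416 and 1494 to 714 and 835 CPM. Several genes known for their induction by interferon were among those that fell. Ifit3 went from 14.6 and 15 to 0.21 and 0.106 CPM (log2 fold change −6.53 ± 0.29), Irf7 from 25.4 and 30.1 to 0.727 and 0.549 (log2 fold change −5.44 ± 0.26), Ifi203 from 233 and 224 to 8.97 and 6.65, and Isg15 from 46.1 and 42 to 7.08 and 8.44. Gbp2, also known for its induction by interferon, rose from 17.1 and 19.8 to 90.4 and 85 CPM (log2 fold change 2.25 ± 0.17). Iigp1, likewise induced by interferon, rose from 21.1 and 18.4 to 82.2 and 76.9 CPM (log2 fold change 2.01 ± 0.33).

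Of 21 genes of autophagy and the lysosome 11 fell and 5 rose (median −0.28). Gabarapl1 rose by 3.42, the protease Ctss fell from 124 and 133 to 27 and 21.8 CPM, and the receptor Sqstm1 fell by 1.31. In the Bcl-2 family, which sets the threshold of apoptosis, 9 of 15 genes rose and 3 fell (median 0.51). The survival gene Bcl2l1 (BCL-XL) went from 12.2 and 10.9 to 97.7 and 91.8 CPM (log2 fold change 3.04 ± 0.19) and Bcl2 from 335 and 356 to 633 and 649 (log2 fold change 0.89 ± 0.13). Bcl2a1d went from 7.14 and 7.95 to 66.2 and 55.2 CPM and Bcl2a1b from 36.9 and 29.8 to 161 and 155, with reads that could be divided between these near copies. Mcl1, also antiapoptotic, fell by 0.75, and the proapoptotic Bbc3 (PUMA) by 0.80 over all cells but not under the threshold in cells under 10% (−0.37).

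How many cells carried these transcripts was asked after each cell was thinned to 3000 UMIs, since deeper cells show more genes. Cells below that depth were left out, 7 and 1 before and 1 and 3 after stimulation. A Gzmb UMI was then found in 0.14% and 0.13% of unstimulated cells and 73% and 75.2% of stimulated cells, and an Il2ra UMI in 3.1% and 3.92% and then 60.9% and 64.8%. Mki67 went from 0.29% and 0.27% to 45.2% and 47.6%. Ifng was found in 21% and 22.4% of stimulated cells and Il2 in 7.46% and 5.84%, against less than 1% before. At this depth a transcript at the level of Il2 is missed in most cells, so its share does not count the cells that express it. Without thinning, Il2 was in 20% and 16.8% of stimulated cells, and in 29.2% and 24.4% of those under 10%.

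Klf2 went from 75.9% and 78.8% of cells to 3.64% and 3.78%, and Tcf7 from 55.5% and 58.2% to 12.9% and 13.5%. Without thinning, Tcf7 was in 82.8% and 85.2% of cells and then 48.9% and 49%, and Cd69 in 38.3% and 39.5% and then 76.5% and 72.2%. Thinned, Cd69 was in 21.2% and 20.6% and then 32.5% and 26.8% of cells. In cells under 10% it was in 22% and 18.5%, close to the unstimulated values. Transcripts set free from broken cells can add UMIs to others, and their part was not tested.

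**Figure D5:**
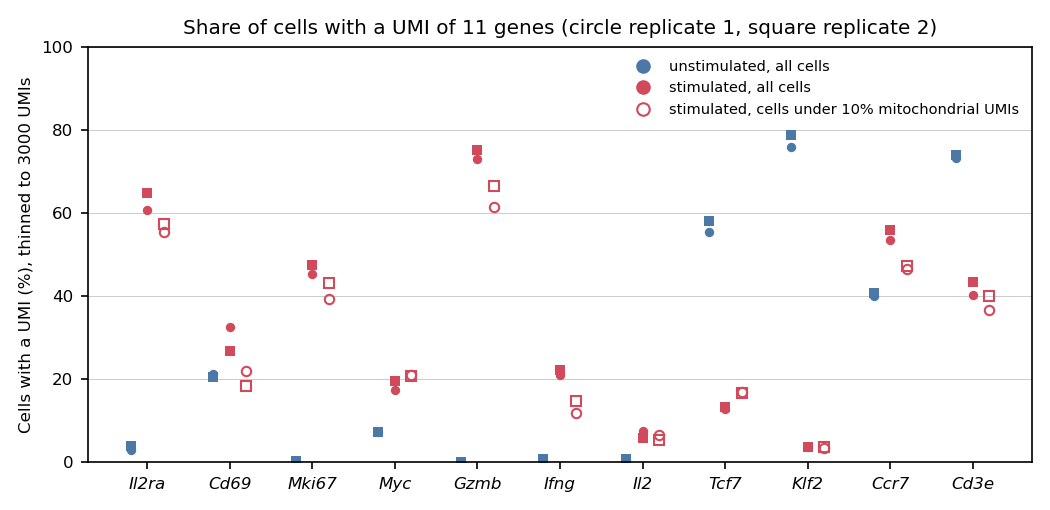
Percentage of cells of each WT sample with at least 1 UMI of a gene after thinning each cell to 3000 UMIs, blue for unstimulated and red for stimulated samples, with open symbols for stimulated cells under 10% mitochondrial UMIs. Gzmb (73% and 75.2% of stimulated cells), Il2ra, and Mki67 are high in stimulated samples, Klf2 is high in unstimulated samples (75.9% and 78.8%), and Il2 stays under 8% in all 4.

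The response of CD8 cells was set against that of CD4 cells, with classes as the authors annotated them by cluster, to ask which parts of the program were unequal. Of 14235 genes, 747 changed more positively in CD8 cells (5.25%) and 977 in CD4 cells (6.86%). Without the TMM factors these would be 2340 and 506, and in cells under 10% they were 489 (3.53%) and 765 (5.53%) of 13843. The total of 1724 fell to 971 without unstimulated replicate 1 and to 756 without replicate 2. Ifng differed by 7.71 ± 0.75 on the log2 scale (adjusted p = 1.22e-05). It went from 3.16 and 24.4 to 32.1 and 49 CPM in CD4 cells, and from 2.87 and 0.899 to 783 and 1263 CPM in CD8 cells. Ccl3 had 15.7 ± 9.57 CPM in stimulated CD4 cells and 106 ± 11.3 in stimulated CD8 cells (SD, n = 2). Its difference of responses rested on 375 UMIs in CD4 cells of unstimulated replicate 2, where replicate 1 had 0. The other genes with the largest differences stood on very few UMIs in one class before stimulation. Rgs16, Lamc1, and Ptpn3 had 0 UMIs in unstimulated CD8 cells, and Aurkb, a mitotic kinase, 0 in unstimulated CD4 cells and 2 and 3 in CD8 cells. Among genes that were higher in resting CD8 than CD4 cells, Gm43698 fell from 45.4 ± 6.97 to 0.283 ± 0.05 CPM in CD8 cells, and Gria3 from 22.2 ± 0.283 to 0.347 ± 0.21. Haao, an enzyme of tryptophan breakdown, fell from 25.5 ± 1.38 to 12.4 ± 0.28 CPM in CD8 cells and rose from 0.459 ± 0.022 to 5.74 ± 1.57 in CD4 cells. The 10 differences had the same sign and passed the test in cells under 10%. The nucleoside transporter Slc28a1 reached 25.7 ± 4.31 CPM in CD4 and 24.7 ± 5.4 in CD8 cells.

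All 79 cytosolic ribosomal proteins changed more negatively in CD8 cells, with a median difference of −0.62, from −0.39 in CD4 cells to −1.04 in CD8 cells. Of 72 nuclear ETC genes 40 changed more negatively in CD8 cells (median difference −0.26). In contrast, 14 of 22 ER genes changed more positively in CD8 cells (median 0.51), as did 13 of 20 activation markers, while 2 of those changed more negatively (median 0.79). Stimulated cells under 10% were 39.1% and 41% of CD4 cells but 24.3% and 29.3% of CD8 cells, and within them the differences were smaller: all 79 ribosomal proteins (median −0.47) and 20 ETC genes (−0.15) changed more negatively in CD8 cells, and 8 ER genes (0.28) and 9 activation markers (0.64) more positively. Cells in which both Cd4 and Cd8a or Cd8b1 were detected went from 4.23% and 4.31% to 13.4% and 14.9% of cells with stimulation, and the part of mixed or misassigned cells in these differences was not tested.

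The response of SDHA-KO cells differed from the WT response for 4116 genes, 2377 more positive (15.6%) and 1739 more negative (11.4%) in SDHA-KO, or 1666 and 2369 without the TMM factors and 965 (6.63%) and 1267 (8.71%) in cells under 10%. The total was 2476 without unstimulated WT replicate 1, 2482 without replicate 2, 2677 without stimulated WT replicate 1, and 2657 without unstimulated SDHA-KO replicate 2. Stimulated cells under 10% were 80.1% and 83.9% of SDHA-KO cells, against 31.8% and 35.5% of WT cells. HIF-1 targets changed more negatively in SDHA-KO for 18 of 20 genes (median difference −1.60) and sterol and fatty acid synthesis for 28 of 31 (median −1.46), and the numbers were again 18 and 28 in cells under 10% (medians −1.97 and −1.57). Genes of the mitochondrial ribosome changed more positively in SDHA-KO for 61 of 76, nuclear ETC genes for 44 of 72, and the proteasome for 29 of 37. In cells under 10% these were 11, 3, and 2.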

How the data were processed

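Single-cell RNA sequencing of 8 samples of splenic T cells was used, of which the 4 WT samples are described. Per the labels and the study's methods, the authors made 10x Genomics 3′ libraries, processed them with bcl2fastq and Cell Ranger (versions not given in the sources used here) with the mm10 build, merged samples in Seurat, and took out clusters without CD3 genes and cells with too many genes. They deposited raw UMI counts per gene and cell, and a cell table with the sample, the percent of UMIs on mitochondrially encoded genes, and a CD4 or CD8 class for each cell. The columns on clusters other than the class were not used for any result given here.

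UMI counts were summed per sample, because cells are not replicates. Genes were kept with filterByExpr of edgeR 4.0.16 (R 4.3.3), scaled with TMM, and tested with glmQLFit and glmQLFTest over 8 samples in 4 groups, which leaves 4 residual degrees of freedom. The study names a Wilcoxon test for some comparisons of single cells, and names no test for its differential expression. The common dispersion of 0.00759 corresponds to a spread of 8.71% between replicates, which exceeded counting error (chi-square per degree of freedom 2.06 in unstimulated and 13.6 in stimulated WT). An exact permutation test of 2 against 2 samples cannot go below a two-sided p of 0.33 and was not used. SE is the log2 fold change divided by the square root of F. Intervals and bounds cover counting error only, and for genes at 0 UMIs in a group 3 UMIs over the group were taken. CD4 and CD8 sums were compared with the sample as a block. On simulated counts for the comparison of stimulated with unstimulated WT over 15262 genes, 88% of genes raised by 2 on the log2 scale, 73.5% of those raised by 1, 72% of those lowered by 1, and 79.6% of those lowered by 2 were called, and 0.0342% of unchanged genes. The simulation changed only 200 genes and used the common dispersion for every gene and sample. In the data 68.9% of genes were called, so these rates do not carry over to them. No doublet caller was run. Python 3.11.15, pandas 2.3.3, limma 3.58.1, DESeq2 1.42.0, and matplotlib 3.10.9 were also used.

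Named genes are the 10 with the largest gain, loss, rise, and fall (folds among genes with at least 20 CPM), members of 40 lists written by hand from general knowledge, with the largest rise and fall of each, and the 5 with the largest class difference each way. A few of these genes are not reported here. Members and lists were chosen with earlier results of these data known. Alternatives were other normalization, filters, tools, cells, samples, depth, and a replicate block. Replicate numbers were not taken to pair samples, since no label ties them. Deviations of same-numbered samples correlated over 5665 genes at −0.073 between unstimulated and stimulated WT, and at −0.0545 to 0.288 between the other pairs of groups, highest between stimulated WT and stimulated SDHA-KO.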

Additional observations from a re-analysis of the deposited data

Results flagged for a closer look

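The results listed here differed between groups by a test of the difference itself. The stimulation response differed between CD8 and CD4 cells for 1724 genes and between SDHA-KO and WT cells for 4116 (edgeR, adjusted p under 0.05). Among genes with at least 20 CPM in a class and state, the largest log2 differences of the response, CD8 minus CD4, were 9.62 for Lamc1, 8.41 for Ccl3, 8.40 for Rgs16, 8.25 for Ptpn3, and 7.71 for Ifng, and −6.57 for Aurkb, −5.64 for Gm43698, −4.65 for Haao, −4.42 for Slc28a1, and −4.02 for Gria3. The values of Lamc1, Rgs16, Ptpn3, and Aurkb depend on the prior count of the fit, since 1 class had 0 UMIs before stimulation. Slc28a1 had 1 UMI in each unstimulated CD4 sum and 18 and 7 UMIs in the CD8 sums.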

How the results depend on the processing

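The numbers of genes that rose (5647) and fell (4872) stayed within 1.5 times under other size factors, no TMM factors, DESeq2, no filter, WT samples alone, thinned libraries, CD4 or CD8 cells alone, and cells under 10% mitochondrial UMIs. They moved to 2525 and 1678 when a change beyond 2-fold was required (glmTreat), and to 9296 and 2204 with limma on the mean over cells of log-normalized values, which weighs each cell equally. Leaving out a replicate gave 4891 to 5107 higher and 3854 to 4257 lower (5134 to 5249 and 3983 to 4226 in cells under 10%). With a replicate block, a pairing that no label gives (correlations of −0.073 to 0.288 between groups), they were 5558 and 4752 (5665 and 4706 in cells under 10%), and the SDHA-KO difference had 2218 and 1535, so the block moved no number by over 1.5 times. The CD8 and CD4 difference, 1724 genes, became 997 without the sample as a block, 2846 without TMM factors, and 756 to 1234 with a replicate left out, lowest without unstimulated replicate 2. The SDHA-KO difference, 4116 genes, became 2232 in cells under 10% and 2476 to 4168 with a replicate left out. The causes were not tested.

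Of the list medians, 11 that were negative in CPM were positive as log2 ratios of UMIs per cell: TCR complex 1.46, signaling feedback 2.01, lineage factors 1.81, quiescence and homing 0.0086, cytokine receptors 1.37, integrins 1.97, actin 1.65, cytosolic ribosomal proteins 1.45, autophagy and lysosome 1.84, MHC class I and interferon 1.29, and coreceptors 1.10. These are ratios of means over all cells, in which the deep stimulated cells weigh most. Stimulated cells with at least 10% mitochondrial UMIs had a mean of 12634.7 and 12414.3 UMIs, against 7847 and 8407 before stimulation. Of these the actin list held 0.734% and 0.786%, against 3.04% and 2.99%, so its gain did not hold there. Cytosolic ribosomal proteins did not gain there either. The TCR list held 0.7995% and 0.819%, against 0.842% and 0.859%, so its gain held. Without TMM factors feedback (0.24), lineage factors (0.031), integrins (0.20), and autophagy (0.062) turned positive. In cells under 10% feedback (0.27) turned positive, and cytotoxic granules (−0.042) and mitochondrially encoded genes (−0.58) negative. The feedback median ranged from −0.15 to 0.0050 with a replicate left out, turning without unstimulated replicate 1. In WT samples alone chemokines turned (−0.20), in CD4 cells chemokines (−0.50) and coreceptors (0.13), and in CD8 cells granules (−0.056), integrins (0.15), and fatty acid oxidation (−0.055).

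Of 243 named genes, 8 changed direction. Cd69 (0.20) and mt-Nd3 (0.048) did so without TMM factors, and Actb (0.15), Ldhb (0.13), mt-Co2 (−0.23), mt-Co3 (−0.60), mt-Atp6 (−0.91), and mt-Nd1 (−0.071) in cells under 10%. The CD8 and CD4 difference of Ccl3 ranged from −4.13 to 9.74, negative without unstimulated replicate 2. Depth limits the genes at or near 0 UMIs before stimulation, for which only bounds are known, and with 2 samples a group small changes can be missed.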

Other observations

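H2-Ab1, a chain of MHC class II, had 2388 and 3275 UMIs in stimulated samples and 0 in unstimulated ones, and its partner chain H2-Aa 35 and 5 against 0. Cd74, the invariant chain, had 34 and 47 before and 1475 and 1211 after stimulation. Of other markers of cells that present antigen, Cst3 went from 614 and 666 to 3924 and 4182 UMIs and Cd68 from 9 and 7 to 110 and 114. Ebf1 went from 2 and 3 to 90 and 128, while Pax5, Adgre1, and Siglech were at 0 in every sample. Sample totals grew too, and Cst3 went from 56.1 and 52.5 to 84.9 and 81.4 CPM before TMM scaling. In that measure Fcer1g went from 1.83 and 2.68 to 0.606 and 0.525. Of 10 tested myeloid and dendritic markers 4 were called higher and 2 lower, and of 9 B cell markers 0 higher and 3 lower. The part of such cells was not tested.

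The list shares of stimulated cells differed with the mitochondrial percentage beyond mitochondrial genes. Cytosolic ribosomal proteins held 33.5% and 34% of UMIs in cells under 10% and 12.1% and 12.7% in the others, and glycolytic genes 1.66% and 1.73% against 0.658% and 0.706%. ER genes were the other way, 0.259% and 0.243% against 0.551% and 0.561%, as were activation markers, 0.311% and 0.322% against 0.599% and 0.635%. CD4 cells made up 62.1% and 61.9% of stimulated cells under 10% and 50.4% and 53.7% of all stimulated cells.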
